A study of Homo sapiens with 12 samples.

Results

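The genes described here are those whose response to everolimus differed between 2 squamous carcinoma lines, measured as the everolimus effect in HSC-1 minus the everolimus effect in A431 over all 12 arrays of the series. Of the 10613 genes tested, 9793 had a mean level above the array median in both lines and form the set described, 8640 of them protein coding. The rule uses the level of a gene and not its response. The genes nearest to that limit were PLXDC1, MIR365A and GDPD2 on the inside and LOC283299, IGF2BP1 and MIR3671 on the outside.

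Both A431 and HSC-1 are human cell lines established from squamous carcinomas of the skin, and A431 is known for an amplified EGFR gene. Each line was kept for 72 h with everolimus at 100 nM or with its vehicle, DMSO. Of the 4 groups each has 3 arrays, and the series concerns genes tied to everolimus resistance in this cancer. Each line stands for 1 tumour, so a difference between them cannot be told apart from other differences between these lines. All groups were grown in DMEM with fetal serum and antibiotics, and the labels give serum at 10 or 20% without saying which line had which, so serum and line cannot be told apart. Whether the 3 arrays of a group stem from independent cultures is not stated in the labels; the p-values therefore reflect the array-to-array spread alone, and that spread may be technical.

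Everolimus binds the immunophilin FKBP12 and, with it, inhibits mTOR complex 1, the kinase complex that couples growth factors and amino acids to protein synthesis, ribosome production, lipid synthesis and progression through the cell cycle. Inhibition of this complex is also known to relieve a feedback on insulin receptor substrates and receptor kinases. It is further known to let TFEB and related factors raise lysosomal genes. In stratified epithelium the same pathway takes part in the balance between basal growth and differentiation.

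Levels are log2 RMA values of 1 probe set per gene, and a difference is everolimus minus DMSO on that log2 scale, given with its standard error (SE). Array medians lay between 4.34 and 4.39. The correlation was 0.989 to 0.992 between arrays of 1 group and 0.955 to 0.962 between arrays of the 2 lines. The median SE was 0.09 for the difference in a line and 0.13 for the difference between the lines. Of 12 squamous epithelial markers, 7 had a named probe set, and all 7 lay above the array median on every array of both lines. The 3 endothelial markers measured (PECAM1, KDR and VWF) lay below it on every array. Of 3 fibroblast markers measured THY1 lay above it and DCN below it on every array, of 3 leukocyte markers CD68 above and LYZ below, and of 4 melanocyte markers MITF above and MLANA and TYR below. A culture yields 1 RNA pool, so a change in the share of cells in a state and a change of RNA per cell cannot be told apart.

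The difference between the lines passed an adjusted p of 0.05 (limma, Benjamini-Hochberg over all genes tested) for 1118 of 10613 genes, or 10.5%. Among the 9793 genes above the median in both lines 1079 passed, or 11.0%, against 39 of the 820 other tested genes, or 4.76%. The everolimus effect was higher in HSC-1 than in A431 for 491 of the 1079 and lower for 588. That balance is not firm: over all genes called, the HSC-1 effect was the higher one for 46%, and for 50.2% without A431 DMSO replicate 3, 51% without A431 everolimus replicate 3 and 53% without HSC-1 everolimus replicate 3. In the separate lines, 18.6% of the genes tested passed in HSC-1 (7.34% up and 11.3% down) and 6.73% in A431 (2.39% up and 4.33% down). Over the 9793 genes the effects in the lines correlated at r = 0.14 (Pearson) and 0.10 (Spearman). This describes genes measured on the same 12 arrays, which are not independent replicates, and the effects had an SD of 0.20 in HSC-1 and 0.16 in A431.

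Opposite movement was rarer than a call in 1 line and not in the other. Of the 1079 genes, 84 passed in both lines with opposite signs, 52 of them up in HSC-1 and down in A431 and 32 the reverse, which makes 0.858% of the 9793 (0.801% of all genes tested). Another 630 passed in HSC-1 and not in A431 (6.43%, against 6.14% of all genes tested), 223 up and 407 down, and 185 passed in A431 and not in HSC-1 (1.89%, against 1.88%), 58 up and 127 down. A further 45 moved the same way in both lines by unequal amounts (0.460%, against 0.424%), and 135 passed in neither line alone (1.38%, against 1.29%). These shares lie near those of all genes tested. The differences between the lines were small: the median size was 0.52 for the 84, 0.40 for the 630 and 0.43 for the 185, and 34, 91 and 41 of them reached 1.5-fold. A gene that missed the threshold in a line may still have changed there. For 534 of the 630 the 95% interval of the A431 difference lay within 0.32 on the log2 scale either way, as did the HSC-1 interval for 147 of the 185.

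The counts shrink under some settings, and that of 84 depends on single A431 arrays. Of the arrays with DMSO in that line, leaving out replicate 2 gave 42 genes and replicate 1 gave 48, and of those with everolimus, replicate 1 gave 49 and replicate 2 gave 51. The count of 185 was 122 without A431 DMSO replicate 1. The count of 45 was 26 to 29 without replicate 1 or 2 of either A431 group or without HSC-1 DMSO replicate 2. Without the intensity trend of the fit, the 1079 became 711, the 84 became 32, the 185 became 114 and the 45 became 22. Under all 22 alternatives of processing and of arrays, 17 of the 84 stayed in the opposite group, 274 of the 630 in theirs and 58 of the 185 in theirs. The difference between the lines itself passed under all 22 for 80 of the 84.

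**Figure D1:**
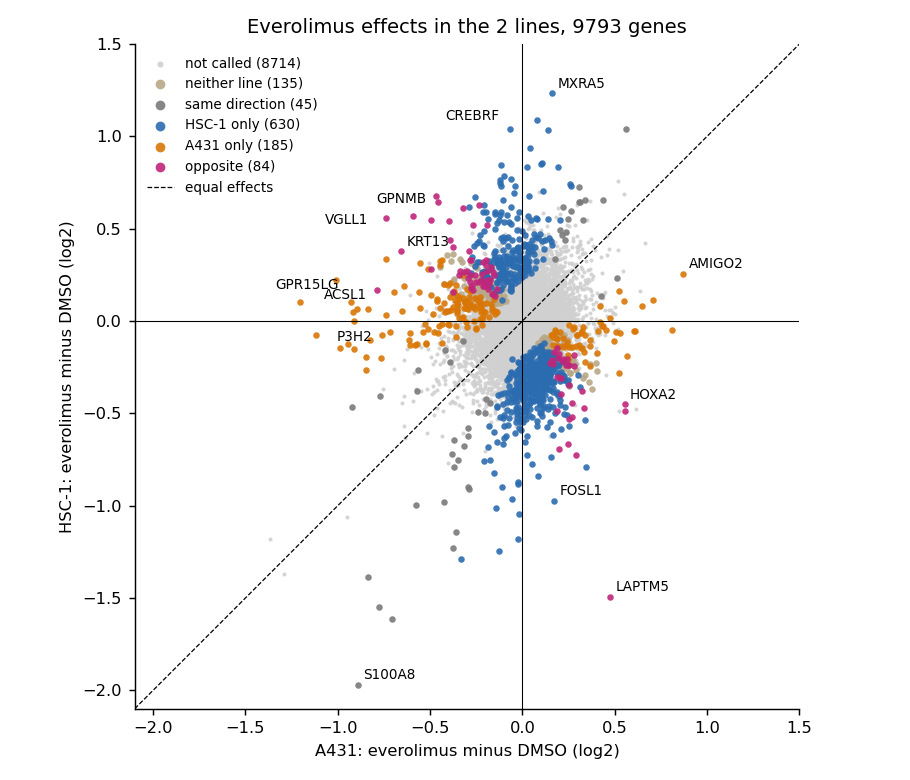
Everolimus minus DMSO (log2) in A431 on the horizontal axis and in HSC-1 on the vertical axis for the 9793 genes above the array median in both lines, 1 point a gene, coloured by where the gene passed an adjusted p of 0.05 among genes whose difference between the lines passed. The dashed line marks equal effects; the 84 genes with opposite effects fill the upper left and lower right, the 630 called in HSC-1 lie along the vertical axis and the 185 called in A431 along the horizontal one.

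Among the 32 genes that rose in A431 and fell in HSC-1, several act in DNA replication and mitosis. GINS2, a subunit of the GINS complex of the replicative helicase, had levels of 7.08, 7.14 and 7.11 in A431 with DMSO and 7.46, 7.54 and 7.35 with everolimus. In HSC-1 its levels were 7.58, 7.55 and 7.64 with DMSO and 7.07, 7.10 and 7.18 with everolimus. The groups did not overlap in either line, as held for 24.5% of all genes tested in A431 and 33.3% in HSC-1. The ranking that picked this gene required such groups, which 82 of the 84 opposite genes had, so this is no added evidence. GINS2 rose 1.26-fold in A431 (0.34 ± 0.06, limma adjusted p = 0.00155) and fell 1.39-fold in HSC-1 (-0.47 ± 0.06, limma adjusted p = 1.94e-05). The difference between the lines was -0.81 ± 0.08 (limma adjusted p = 7.36e-06). KIF18B, a kinesin of mitotic spindle microtubules, had levels of 7.89, 7.91 and 7.95 in A431 with DMSO and 8.19, 8.28 and 8.09 with everolimus. In HSC-1 they were 7.94, 7.96 and 7.88 with DMSO and 7.53, 7.45 and 7.46 with everolimus. The lines thus had similar levels of KIF18B in DMSO and did not overlap with everolimus (difference between the lines -0.71 ± 0.08, limma adjusted p = 8.12e-06).

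Their promoters are shown because genes of this kind carry short known motifs near the start. The windows, from RefSeq on GRCh38.p14, run from 250 bases before to 50 after the annotated start and read 5′ to 3′ along the gene. Capitals mark, on either strand, CCAAT (the box bound by NF-Y), an E2F-like motif (either TTCGCGC, the related form TTGGCGC or the further form TTCCCGC) and TTTGAA, the core of the cell cycle genes homology region. The reverse of CCAAT can overlap TTGGCGC. A match describes the letters and is not a measured binding site.
GINS2 (chr16:85688905-85689204, minus strand): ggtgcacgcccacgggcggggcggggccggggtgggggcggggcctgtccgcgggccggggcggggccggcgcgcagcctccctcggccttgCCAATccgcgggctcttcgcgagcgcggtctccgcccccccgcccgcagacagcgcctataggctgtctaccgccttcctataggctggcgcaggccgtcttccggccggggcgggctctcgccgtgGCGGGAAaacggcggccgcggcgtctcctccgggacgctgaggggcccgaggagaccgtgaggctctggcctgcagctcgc
KIF18B (chr17:44947724-44948023, minus strand): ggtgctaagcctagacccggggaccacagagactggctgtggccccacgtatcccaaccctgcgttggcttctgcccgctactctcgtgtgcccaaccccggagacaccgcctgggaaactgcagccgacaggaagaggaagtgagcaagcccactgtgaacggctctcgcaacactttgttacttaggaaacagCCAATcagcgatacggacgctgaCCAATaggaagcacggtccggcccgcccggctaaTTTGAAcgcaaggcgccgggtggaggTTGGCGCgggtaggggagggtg

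TRIP13, E2F7, WDR62 and CLSPN were further cell cycle genes of this group. TRIP13 (spindle checkpoint) had a difference between the lines of -0.67, E2F7 (a repressor among the E2F factors) of -0.78 and WDR62 (a spindle pole protein) of -0.70. Their fall in HSC-1 passed under all 22 alternatives, whereas the rise in A431 was lost under 11, 6 and 4 of them. CLSPN, a replication checkpoint mediator, had a difference of -1.04 ± 0.13 from its brighter probe set and 0.07 from its other one, and the mean of both gave no call (limma adjusted p = 0.0637, in a range over the alternatives from 8.44e-06 to that value).

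The remaining genes that rose in A431 and fell in HSC-1 are of mixed kinds. LAPTM5, a lysosomal transmembrane protein known from blood cells, had the largest difference between the lines, at -1.97 ± 0.14 (0.47 ± 0.10 in A431, -1.49 ± 0.10 in HSC-1, limma adjusted p = 1.76e-07). Of the leukocyte markers beside it, CD14 and LYZ had mean levels from -1.49 to 0.22 relative to the array median in the 4 groups and CD68 from 3.45 to 6.36, and their part in this value was not tested. HOXA2, a homeobox factor, had levels of 5.62, 5.50 and 5.69 in A431 with DMSO and 6.22, 6.11 and 6.15 with everolimus, against 5.68, 5.59 and 5.61 and then 5.38, 5.01 and 5.14 in HSC-1. It rose 1.47-fold in A431 (limma adjusted p = 0.00187) and fell 1.37-fold in HSC-1 (limma adjusted p = 0.00365), from DMSO levels whose ranges overlap between the lines. NETO2, an accessory subunit of kainate receptors, moved by 0.27 ± 0.05 in A431 and -0.52 ± 0.05 in HSC-1 (difference -0.79 ± 0.07, limma adjusted p = 1.9e-06). NIP7, a factor of ribosome assembly, moved by 0.24 ± 0.04 and -0.24 ± 0.04. C3, the central complement component, had levels of 9.14, 9.13 and 9.13 in A431 with DMSO and 9.44, 9.38 and 9.45 with everolimus, but 6.71, 6.38 and 6.59 and then 5.82, 5.92 and 5.77 in HSC-1. Its difference between the lines was -1.02 ± 0.10 (limma adjusted p = 2.1e-06), and its rise in A431 was lost without A431 DMSO replicate 2 (adjusted p = 0.0514), A431 everolimus replicate 1 (0.052) or the intensity trend (0.0606), the lowest value of any alternative being 0.00302.

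The 52 genes that fell in A431 and rose in HSC-1 included the mucosal keratins KRT13 and KRT4. KRT13, an acidic keratin of mucosal squamous epithelium, had levels of 9.88, 9.87 and 9.78 in A431 with DMSO and 9.16, 9.21 and 9.19 with everolimus. In HSC-1 they were 8.58, 8.66 and 8.47 with DMSO and 8.85, 8.83 and 9.15 with everolimus. The lines drew closer: KRT13 fell 1.58-fold in A431 (-0.66 ± 0.07, limma adjusted p = 4.76e-06) and rose 1.30-fold in HSC-1 (0.38 ± 0.07, limma adjusted p = 0.000616). Its pairing partner KRT4 fell by 0.79 ± 0.05 in A431 and had a difference of 0.17 ± 0.05 in HSC-1 (limma adjusted p = 0.0221). That HSC-1 call was lost under 5 of the 22 alternatives, among them the fits without HSC-1 DMSO replicate 2 (0.102), HSC-1 DMSO replicate 3 (0.0621), HSC-1 everolimus replicate 1 (0.068) and HSC-1 everolimus replicate 2 (0.0566), in a range from 0.0129. PPL (periplakin), which links keratins to the cornified envelope, fell by 0.28 ± 0.05 in A431 and rose by 0.33 ± 0.05 in HSC-1.

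VGLL1, a cofactor of TEAD transcription factors, had the largest positive difference between the lines in the opposite group, 1.30 ± 0.10 (-0.74 ± 0.07 in A431, 0.56 ± 0.07 in HSC-1, limma adjusted p = 3.16e-07). GPNMB, a transmembrane glycoprotein and known target of the TFEB and MITF factors, had levels of 7.17, 7.17 and 7.04 in A431 with DMSO and 6.65, 6.37 and 6.57 with everolimus. In HSC-1 they were 9.30, 9.27 and 9.43 with DMSO and 10.06, 9.78 and 9.86 with everolimus. GPNMB started higher in HSC-1 and the lines moved apart, 1.51-fold down and 1.48-fold up (difference between the lines 1.16 ± 0.11, limma adjusted p = 1.9e-06). MITF had mean levels 0.83 to 1.48 above the array median in the 4 groups. The other melanocyte markers PMEL, MLANA and TYR lay between -1.29 and -0.01 relative to it. The part of these genes in the GPNMB value was not tested. OLFML2A, an extracellular olfactomedin-domain protein, fell by 0.47 ± 0.05 in A431 and rose by 0.68 ± 0.05 in HSC-1 (difference 1.14 ± 0.08, limma adjusted p = 1.76e-07).

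TP53INP1, a stress protein of p53 and autophagy, had levels of 5.75, 5.70 and 5.84 in A431 with DMSO and 5.08, 5.33 and 5.38 with everolimus, against 5.14, 5.11 and 5.16 and then 5.71, 5.70 and 5.65 in HSC-1. The lines exchanged places: A431 was the higher one in DMSO and HSC-1 the higher one in everolimus (difference 1.05 ± 0.14, limma adjusted p = 8.3e-05). CALCOCO1, a receptor for autophagy of the endoplasmic reticulum and Golgi, changed places in the same way, with levels of 6.99, 6.93 and 6.84 and then 6.54, 6.68 and 6.56 in A431, and 6.20, 6.28 and 6.14 and then 6.87, 6.82 and 6.77 in HSC-1 (difference 0.94 ± 0.10, limma adjusted p = 8.81e-06). PSAP, the precursor of the saposins that assist lysosomal lipid breakdown, had levels of 10.88, 10.88 and 10.86 and then 10.67, 10.66 and 10.69 in A431. In HSC-1 they were 10.63, 10.64 and 10.56 and then 10.96, 10.93 and 10.92. The SD over the arrays of a group was at most 0.043. PSAP fell 1.15-fold in A431 and rose 1.26-fold in HSC-1 (difference 0.53 ± 0.05, limma adjusted p = 1.21e-06). The interferon-inducible ligase TRIM22 moved by -0.34 ± 0.06 and 0.27 ± 0.06, the semaphorin receptor PLXNB2 by -0.27 ± 0.04 and 0.17 ± 0.04 and TPRG1L by -0.21 and 0.19.

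The 17 genes that stayed in the opposite group under all 22 alternatives were PSAP, NETO2, PPL, PLXNB2, OLFML2A, LAPTM5, GINS2, GPNMB, HOXA2, CALCOCO1, NIP7, KIF18B, KRT13, VGLL1, TP53INP1, TPRG1L and TRIM22, 11 of them up in HSC-1. Other genes of the group lost the call in 1 or both lines under some alternatives. FBXO32, a ubiquitin ligase subunit and FOXO target, rose 1.54-fold in HSC-1 and lost its A431 call under 9 alternatives, and CPA4 and KLK6, secreted proteases with HSC-1 differences of -0.67 and -0.69, lost theirs under 11 and 12. In DMSO, 35 of the 84 genes were higher in HSC-1 and 38 in A431, and 11 did not pass, where 59.4% of all genes tested passed between the lines. Only 2 of the 84 lay less than 1 above the array median in A431 and 0 in HSC-1.

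**Figure D2:**
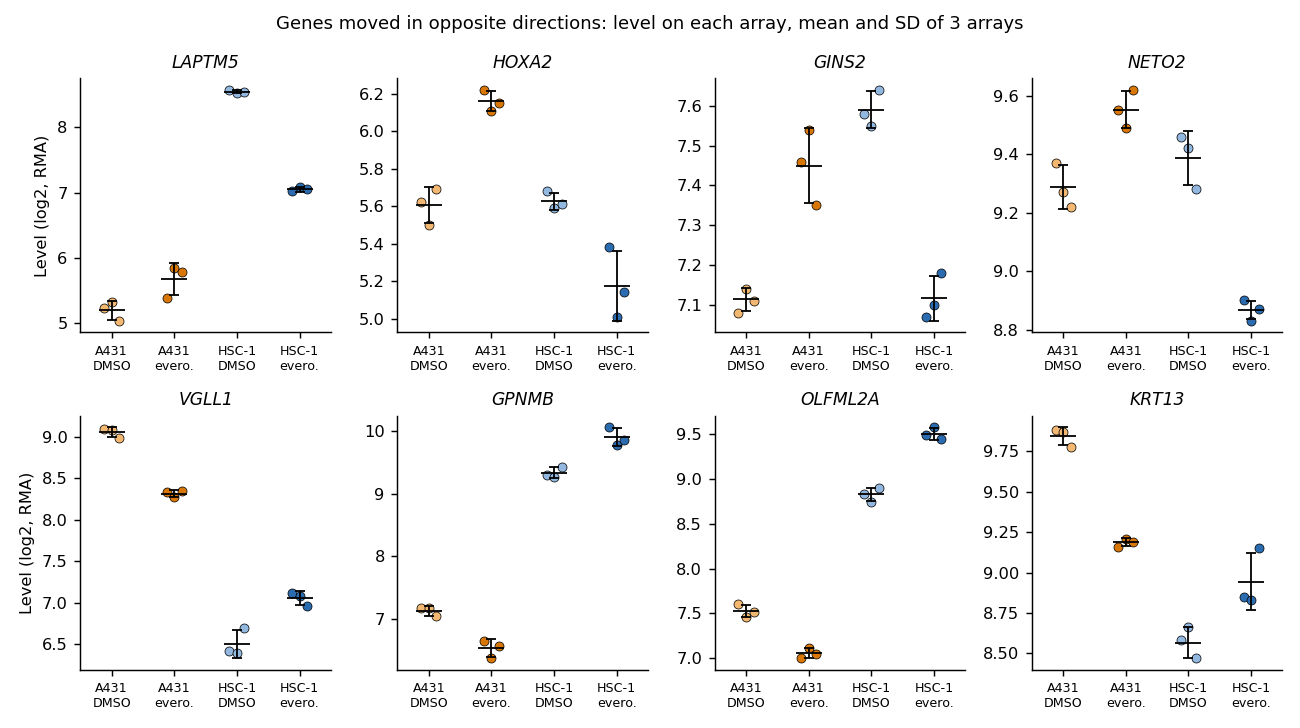
Log2 RMA level on each array (points), group mean and SD of 3 arrays (bars) with DMSO and everolimus in A431 and HSC-1 for genes whose lines moved in opposite directions. In each panel the A431 and HSC-1 arrays shift to opposite sides, as for GINS2 (7.11 to 7.45 in A431, 7.59 to 7.12 in HSC-1) and KRT13.

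Of the lists counted, those of the cell cycle held the most genes called in HSC-1 and not in A431, with 29 of G2/M and mitosis and 16 of G1/S. Of 43 tested genes of G2/M and mitosis, 31 had a lower effect in HSC-1 than in A431 and 0 a higher one, against 5.69% and 4.84% of all genes tested. In HSC-1 34 of the 43 fell and 0 rose, and in A431 0 fell and 2 rose. The median differences were -0.26 and 0.08 (medians of all genes tested -0.02 and 0.00). The falls in HSC-1 are 79.1% of the list, against 11.3% of all genes tested. In A431 the rises are 4.65%, against 2.39%. Leaving out single arrays gave 27 to 31 genes with the lower effect in HSC-1. Of 28 tested genes of G1/S and DNA replication, 21 had a lower and 1 (CCND1) a higher effect in HSC-1, with medians of -0.26 in HSC-1 and 0.06 in A431. The 21 became 12 without HSC-1 DMSO replicate 1, 12 without HSC-1 everolimus replicate 2 and 13 without A431 DMSO replicate 3.

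CDC20, the activator of the anaphase-promoting complex, had levels of 9.51, 9.55 and 9.46 in HSC-1 with DMSO and 9.0, 8.89 and 9.0 with everolimus, and 9.62, 9.60 and 9.56 and then 9.71, 9.65 and 9.66 in A431. It fell 1.46-fold in HSC-1 (-0.54 ± 0.04, limma adjusted p = 4.59e-08) and differed by 0.08 in A431 (95% interval -0.01 to 0.17). The mitotic kinase PLK1 changed by -0.51 in HSC-1 and had an A431 interval of -0.10 to 0.07. The cyclins CCNA2 and CCNB1 changed by -0.45 each in HSC-1, the mitotic transcription factor FOXM1 by -0.43, and the replication licensing factors MCM10 and CDC6 by -0.57 and -0.55, with A431 differences between 0.00 and 0.13. CCND1, the G1 cyclin D1, went the other way, at 0.23 ± 0.04 in HSC-1 and -0.04 ± 0.04 in A431 (limma adjusted p of the difference = 0.00531, lost under 1 alternative).

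In the promoter windows, TTTGAA stood in 25 of the 38 G2/M genes with a window, or 65.8%, against 15.4% of the 27305 windows in the table and 9.5% of the windows of the 9793 genes. An E2F-like motif stood in 16 of 21 G1/S genes, or 76.2%, against 11.2% and 17.1%. These shares cover all genes of a list with a window, called or not. In the opposite group the E2F-like share was 33.3% for genes that fell in HSC-1 and 30.0% for those that rose. It was 24.0% for genes that fell in HSC-1 and did not pass in A431, and 13.2% for those that rose. Among genes that passed in A431 and not in HSC-1, 29.8% of the rises and 9.7% of the falls held it. Over all 407 genes that fell in HSC-1 and did not pass in A431, CCAAT stood in 50% of 334 windows, against 36.7% for the 9793 genes. The window of CDC20 is shown as the example with CCAAT and TTTGAA both present, in capitals.
CDC20 (chr1:43358731-43359030, plus strand): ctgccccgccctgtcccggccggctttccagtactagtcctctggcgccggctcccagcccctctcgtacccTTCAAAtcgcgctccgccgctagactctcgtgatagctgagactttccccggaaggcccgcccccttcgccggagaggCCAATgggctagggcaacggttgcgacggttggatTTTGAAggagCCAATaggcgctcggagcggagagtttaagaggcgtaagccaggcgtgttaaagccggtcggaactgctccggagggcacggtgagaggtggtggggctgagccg

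Genes of ribosome biogenesis also had lower effects in HSC-1, while few ribosomal protein genes differed between the lines. Of 34 tested genes of ribosome biogenesis, 15 had a lower effect in HSC-1 and 1 a higher one, or 47.1% in all, against 10.5% of all genes tested. In HSC-1 19 fell, or 55.9% against 11.3% of all genes tested, and in A431 0 fell. The medians were -0.24 and 0.04. LYAR, a nucleolar regulator, changed by -0.66 ± 0.09 in HSC-1 and 0.02 ± 0.09 in A431, and the rRNA methyltransferase NOP2 by -0.48 ± 0.06 and -0.08 ± 0.06. The rRNA helicase DDX21 changed by -0.27 in HSC-1 and 0.14 in A431, where the 95% interval ran from 0.05 to 0.22 but the adjusted p was 0.0614 (limma). TCOF1 (treacle), a factor of rRNA transcription, changed by -0.37 and 0.12. The 1 exception was NOP53, a ribosome assembly factor whose RNA hosts a snoRNA: it rose in both lines, 2.06-fold in HSC-1 (levels 7.69, 7.71 and 7.70, then 8.65, 8.74 and 8.84) and 1.48-fold in A431 (8.62, 8.60 and 8.59, then 9.09, 9.22 and 9.19). Of 46 ribosomal protein genes, 25 rose in HSC-1 and 22 in A431 with 0 falling, and the line difference passed for 3 (RPL10, RPL17 and RPS27) in the fit of all arrays and for 1 without replicate 1 or 2 of either A431 group, HSC-1 DMSO replicate 3 or HSC-1 everolimus replicate 2. Their medians were 0.23 and 0.19. The line difference passed for 6.52% of these genes, against 10.5% of all genes tested. In HSC-1 54.3% rose, against 7.34% of all genes tested, and in A431 47.8%, against 2.39%.

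Genes that supply amino acids and nucleotides passed mostly with the lower effect in HSC-1. PSAT1, the aminotransferase of serine synthesis, had levels of 10.05, 10.04 and 10.05 in HSC-1 with DMSO and 9.37, 9.20 and 9.24 with everolimus, while in A431 its levels ran from 9.92 to 9.99 with DMSO and from 9.95 to 10.04 with everolimus. It fell 1.71-fold in HSC-1 (limma adjusted p = 1.08e-09) and had an A431 interval of -0.04 to 0.15. Of 14 amino acid response genes, 3 had a lower effect in HSC-1 and 0 a higher one: PSAT1, ASNS (asparagine synthetase, -0.43 in HSC-1) and SHMT2 (mitochondrial serine hydroxymethyltransferase, -0.36). Of 17 aminoacyl-tRNA synthetases 6 had a lower and 0 a higher effect in HSC-1, where 11 fell; MARS1 changed by -0.33 ± 0.05 in HSC-1 and 0.17 ± 0.05 in A431. Of 23 genes of nucleotide synthesis and the pentose phosphate pathway 5 had a lower and 1 a higher effect, among them RRM2, a ribonucleotide reductase subunit (-0.34 and 0.15); the 5 became 3 without A431 DMSO replicate 3. The line difference passed for 21.4%, 35.3% and 26.1% of these 3 lists, against 10.5% of all genes tested. The 11 synthetases that fell in HSC-1 are 64.7% of their list, against 11.3% of all genes tested.

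The rises that passed in HSC-1 and not in A431 were led by MXRA5, a matrix-associated protein, with levels of 5.85, 5.88 and 6.02 with DMSO and 7.24, 7.15 and 7.07 with everolimus in HSC-1. In A431 its levels were 8.42, 8.38 and 8.33 and then 8.56, 8.55 and 8.50. It rose 2.35-fold in HSC-1 (1.23 ± 0.06, limma adjusted p = 1.18e-10), and its A431 interval of 0.03 to 0.29 did not include 0, although the adjusted p was 0.141 (limma). FN1 (fibronectin), another matrix gene, had levels of 8.11, 8.03 and 8.13 and then 8.93, 8.94 and 8.90 in HSC-1 and differed by 0.03 ± 0.07 in A431. The fibroblast markers measured did not move with them: the mean level of DCN lay between -2.20 and -2.06, of LUM between -1.77 and 0.60 and of THY1 between 0.35 and 0.50 relative to the array median in the 4 groups, with LUM at -1.51 in HSC-1 with DMSO and -1.77 with everolimus.

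Feedback and FOXO-linked genes were another group among these rises. Of 28 tested genes of receptors, insulin receptor substrates and FOXO targets, 8 had a higher effect in HSC-1 and 0 a lower one, and 10 rose and 1 fell in HSC-1 against 1 and 3 in A431. Of all genes tested 7.34% rose and 11.3% fell in HSC-1, and 2.39% rose and 4.33% fell in A431. The medians were 0.07 and -0.04. The line difference passed for 28.6% of the list, against 10.5% of all genes tested. KLHL24, an adaptor of keratin turnover, had levels of 6.45, 6.40 and 6.41 and then 7.58, 7.48 and 7.31 in HSC-1, a 2.05-fold rise (limma adjusted p = 2.67e-08), while its A431 interval was -0.02 to 0.30. CREBRF, a regulator of energy balance, rose 2.05-fold in HSC-1 (levels 5.14, 5.14 and 5.10, then 6.37, 6.20 and 5.93) and had overlapping A431 groups with an interval of -0.32 to 0.19. TXNIP, an inhibitor of thioredoxin and of glucose uptake, changed by 0.73 ± 0.07 in HSC-1 and -0.12 ± 0.07 in A431. IRS2, an insulin receptor substrate, had levels of 7.11, 7.06 and 7.24 and then 8.07, 7.97 and 7.92 in HSC-1, but 5.56, 5.18 and 5.26 and then 5.33, 5.56 and 5.42 in A431, where its groups overlapped. IRS1, another such substrate, fell 1.34-fold in HSC-1 instead. That call was lost without HSC-1 DMSO replicate 1 or 3 or HSC-1 everolimus replicate 2. The line difference of IRS1 did not pass, except with weighted arrays. The receptor kinases FGFR2 and IGF1R rose by 0.55 and 0.41 in HSC-1; the line difference of IGF1R (0.25, limma adjusted p = 0.0269) was lost under 10 of the 22 alternatives, FGFR2 under none.

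The motif TGTTTAC, read by forkhead factors and chosen after the data were seen, stood in 18 of 167 windows of the genes that rose in HSC-1 and did not pass in A431, or 10.8%, against 2.5% for the 9793 genes and 3.4% for all windows. It stood in 0.9% of the windows of those that fell. TCP11L2 (levels 5.99, 5.91 and 6.06, then 6.88, 6.84 and 6.76 in HSC-1; A431 interval -0.26 to 0.03) and TXNIP hold it, in capitals as its reverse complement:
TCP11L2 (chr12:106302483-106302782, plus strand): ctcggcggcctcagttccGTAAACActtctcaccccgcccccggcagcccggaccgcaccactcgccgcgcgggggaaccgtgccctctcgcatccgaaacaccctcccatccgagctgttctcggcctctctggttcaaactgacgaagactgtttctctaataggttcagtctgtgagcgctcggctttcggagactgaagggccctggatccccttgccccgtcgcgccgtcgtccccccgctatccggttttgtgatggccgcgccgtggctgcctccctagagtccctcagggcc
TXNIP (chr1:145996530-145996829, minus strand): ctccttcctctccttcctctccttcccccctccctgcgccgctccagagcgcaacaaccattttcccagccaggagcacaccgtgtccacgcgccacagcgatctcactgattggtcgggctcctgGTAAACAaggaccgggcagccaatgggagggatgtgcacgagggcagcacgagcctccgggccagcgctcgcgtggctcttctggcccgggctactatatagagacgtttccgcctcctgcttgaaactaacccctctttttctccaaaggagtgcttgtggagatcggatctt

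MicroRNA genes were also among the HSC-1 rises. The probe sets lie on the gene and do not separate the mature RNA from longer transcripts. MIR23B had levels of 7.66, 7.67 and 7.71 and then 8.80, 8.88 and 8.62 in HSC-1, a 2.12-fold rise (limma adjusted p = 3.79e-09), with an A431 interval of -0.06 to 0.22. MIR222 rose 1.92-fold in HSC-1 (levels 6.15, 6.43 and 6.46, then 7.43, 7.37 and 7.06) with an A431 interval of -0.16 to 0.25. MIR3936 was in the opposite group (-0.45 in A431, 0.65 in HSC-1), but its A431 call was lost under 6 alternatives. Their mature sequences follow from RefSeq (GRCh38.p14), with the seed, bases 2 to 8, in capitals; no seed is shared among them.
hsa-miR-23b-5p (chr9:95085227-95085248, plus strand): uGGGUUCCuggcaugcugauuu
hsa-miR-23b-3p (chr9:95085265-95085287, plus strand): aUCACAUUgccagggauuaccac
hsa-miR-222-5p (chrX:45747073-45747094, minus strand): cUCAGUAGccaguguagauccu
hsa-miR-222-3p (chrX:45747036-45747056, minus strand): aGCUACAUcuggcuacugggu
hsa-miR-3936 (chr5:132365513-132365534, minus strand): uAAGGGGUguauggcagaugca

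Lysosomal genes that differed between the lines had, with 1 exception, the higher effect in HSC-1. Of 39 tested genes of the lysosome and autophagy, 11 had a higher effect in HSC-1 and 1, LAPTM5, a lower one. Together these are 30.8% of the list, against 10.5% of all genes tested. In HSC-1 10 rose and 5 fell, in A431 1 rose and 7 fell, and the medians were 0.05 and -0.08. The 10 rises in HSC-1 are 25.6% of the list against 7.34% of all genes tested and the 7 falls in A431 17.9% against 4.33%, whereas the 5 falls in HSC-1, 12.8%, lie near the 11.3% of all genes. TPP1, a lysosomal peptidase, had levels of 7.61, 7.66 and 7.63 and then 8.29, 8.21 and 8.17 in HSC-1, a 1.51-fold rise (limma adjusted p = 2.71e-06), and an A431 interval of -0.15 to 0.11. LAMP1, a membrane protein of the lysosome, and CTSA, its protective protein, each changed by 0.33 in HSC-1. Leaving out single arrays kept 9 to 13 of the 39 with a higher effect in HSC-1, whereas the 7 that fell in A431 became 3 without replicate 1 of either A431 group or A431 everolimus replicate 2, and 4 without A431 DMSO replicate 2. The 5 that fell in HSC-1 became 3 without HSC-1 DMSO replicate 1 or 2 or HSC-1 everolimus replicate 2.

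Falls in HSC-1 that did not pass in A431 also took in genes of ERK output. FOSL1, an AP-1 subunit downstream of ERK, had levels of 8.14, 8.06 and 8.02 and then 6.95, 7.30 and 7.05 in HSC-1, and 7.39, 7.26 and 7.32 and then 7.55, 7.55 and 7.39 in A431. The lines exchanged places, with a 1.96-fold fall in HSC-1 (limma adjusted p = 6.25e-08) and an A431 interval of 0.01 to 0.33 (limma adjusted p = 0.214). HBEGF, a ligand of EGFR, fell 1.79-fold in HSC-1 (levels 6.99, 6.81 and 7.15, then 6.25, 6.12 and 6.07) and had overlapping A431 groups. IER3, an early response gene, fell 1.67-fold in HSC-1 (limma adjusted p = 2.36e-08). Its 11 probe sets all gave a negative line difference. Several of them shared the same value (-0.5831 or -0.89), so they do not count as independent measurements. Of 28 ERK output genes and EGFR ligands, 7 had a lower and 1 a higher effect in HSC-1, or 28.6% in all, against 10.5% of all genes tested. In HSC-1 8 fell, or 28.6% against 11.3% of all genes tested, and 5 without HSC-1 DMSO replicate 3. The medians were -0.13 in HSC-1 and -0.03 in A431.

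ICAM1, the leukocyte adhesion molecule, had levels of 7.48, 7.54 and 7.68 and then 6.59, 6.61 and 6.60 in HSC-1, while in A431 it lay between 4.91 and 5.29 in both groups, which overlapped. The array medians were 4.34 to 4.39, so ICAM1 lay close to the limit of the set in A431. Of the 630 genes that passed in HSC-1 and not in A431, 30 lay less than 1 above the median in A431. Of 19 inflammatory genes, 7 had a lower and 1 a higher effect in HSC-1, or 42.1% in all, against 10.5% of all genes tested. In HSC-1 6 fell and 0 rose, in A431 2 fell and 5 rose, and the medians were -0.20 and 0.02. The falls in HSC-1 are 31.6% of the list, against 11.3% of all genes tested. In A431 the rises are 26.3%, against 2.39%, and the falls 10.5%, against 4.33%. Only 2 of the 19, ICAM1 among them, passed in HSC-1 and not in A431, and 3 passed in A431 and not in HSC-1. The 5 rises in A431 included the serum amyloid SAA1 (0.53 ± 0.06) and the macrophage growth factor CSF1 (0.32 ± 0.08), and became 2 without A431 everolimus replicate 1 or A431 DMSO replicate 2 and 3 without A431 DMSO replicate 3. MMP13, a collagenase, had levels of 8.82, 8.91 and 8.87 and then 8.0, 8.0 and 7.99 in HSC-1, a 1.83-fold fall (limma adjusted p = 7.54e-07), and differed by -0.02 ± 0.08 in A431. The line difference passed for 69.2% of 13 mesenchymal and matrix genes, against 10.5% of all genes tested. The effect was higher in HSC-1 for 5 and lower for 4. The 5 became 3 without A431 everolimus replicate 3, A431 DMSO replicate 1 or 2, or HSC-1 DMSO replicate 1 or 3.

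The small noncoding snaR RNAs, which RNA polymerase III transcribes, were among the largest falls. SNAR-B1 had levels of 11.15, 11.11 and 11.10 and then 9.75, 9.74 and 10.14 in HSC-1, a 2.37-fold fall (limma adjusted p = 7.9e-09), and 11.15, 11.09 and 11.14 and then 11.04, 11.13 and 10.82 in A431, where the interval was -0.30 to 0.05. SNAR-D changed by -1.18 ± 0.14 in HSC-1 and -0.02 ± 0.14 in A431. These RNAs are near-identical copies, so their probe sets may share signal and are not independent of each other.

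**Figure D3:**
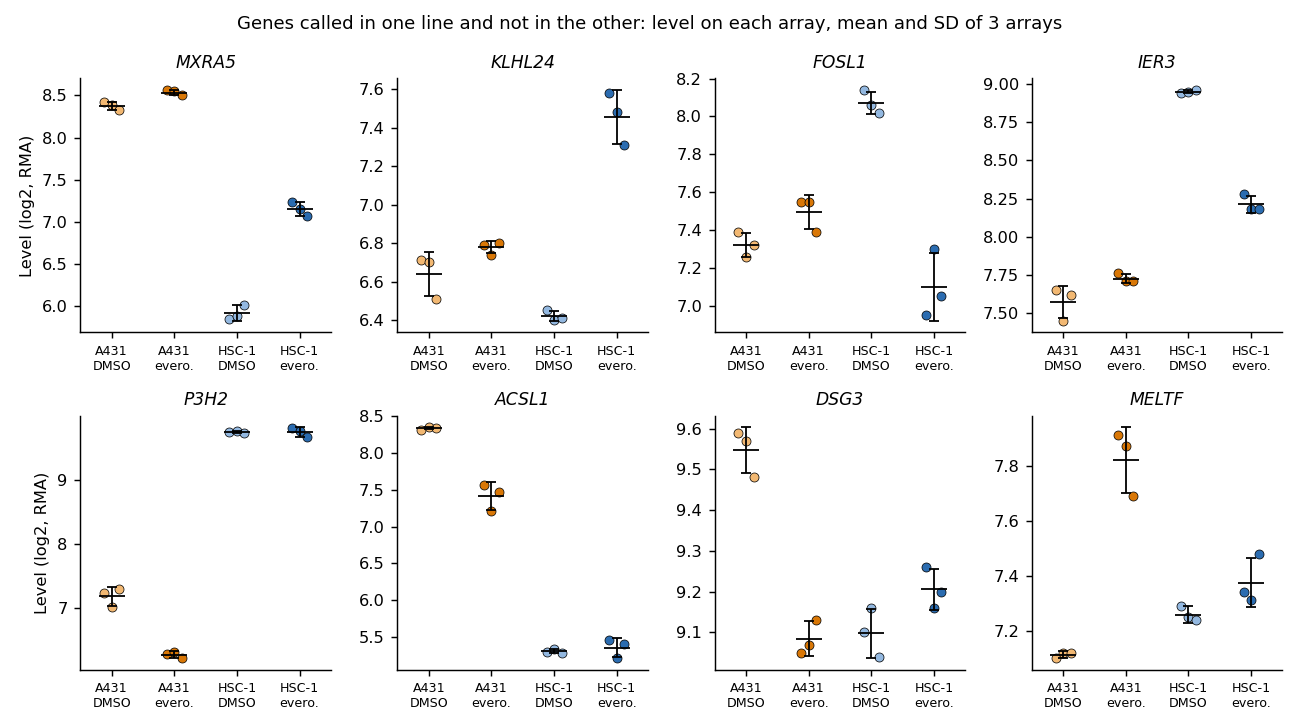
Log2 RMA level on each array (points), group mean and SD of 3 arrays (bars) for 4 genes that passed in HSC-1 and not in A431 (upper panels) and 4 that passed in A431 and not in HSC-1 (lower panels). In the upper panels the HSC-1 groups separate, and in the lower panels the A431 groups do, as for P3H2 (7.18 to 6.27 in A431, 9.74 in both HSC-1 groups).

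Fewer genes passed in A431 and not in HSC-1, and more of them fell than rose. P3H2, a collagen prolyl hydroxylase, had levels of 7.23, 7.02 and 7.30 and then 6.28, 6.32 and 6.22 in A431, a 1.88-fold fall (-0.91 ± 0.06, limma adjusted p = 7.46e-08). In HSC-1 it had 9.74, 9.75 and 9.73 and then 9.81, 9.75 and 9.66, with an interval of -0.13 to 0.13. GPR15LG, AOC1, THEM5 and LDLRAD1 also fell by 0.90 to 1.20 in A431, and GPR15LG had a line difference of 1.31, but in HSC-1 their levels lay only 0.05 to 0.75 above the array median, close to the limit of the set. Of the 127 genes of this kind, 17 lay less than 1 above the median in HSC-1.

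Single genes of fatty acid synthesis differed between the lines, some in each direction. ACSL1, an acyl-CoA synthetase, had levels of 8.32, 8.35 and 8.34 and then 7.57, 7.21 and 7.47 in A431, a 1.89-fold fall (limma adjusted p = 2.41e-06), and in HSC-1 it lay 0.97 above the median with an interval of -0.13 to 0.23. FASN, the fatty acid synthase, had levels of 9.57, 9.55 and 9.54 and then 9.08, 9.20 and 9.11 in A431, a 1.34-fold fall (limma adjusted p = 5.78e-06). In HSC-1 it had 8.13, 8.08 and 8.06 and then 8.23, 8.13 and 8.19, groups that met at 8.13, with an interval of 0.00 to 0.19. SCD, the stearoyl-CoA desaturase, changed by -0.58 ± 0.05 in A431 and -0.13 ± 0.05 in HSC-1 (limma adjusted p of the line difference = 0.000334). Its HSC-1 difference missed the threshold at 0.0796 and passed under 2 alternatives. ELOVL6, a fatty acid elongase, did the reverse, at -0.10 ± 0.09 in A431 and -0.66 ± 0.09 in HSC-1. Of 22 genes of fatty acid synthesis, 6 had a higher effect in HSC-1 and 1 (ELOVL6) a lower one; 5 fell in A431 and 4 in HSC-1. The medians were -0.12 and -0.05, and the median line difference of 0.03 ran from -0.003 to 0.08 over the main fit and all 22 alternatives. The line difference passed for 31.8% of the genes, against 10.5% of all genes tested. In A431 22.7% fell, against 4.33% of all genes tested, and in HSC-1 18.2%, against 11.3%.

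More differentiation genes fell than rose in each line, mainly in A431, and 4 of the list were in the opposite group. Of 46 tested, 20 fell and 1 rose in A431, where 4.33% and 2.39% of all genes tested did, and 12 fell and 3 rose in HSC-1, where 11.3% and 7.34% did. The medians were -0.24 and -0.07. The line difference was higher in HSC-1 for 9 and lower for 4 (S100A8, S100A9, KLK6 and KLK10). Together these are 28.3% of the list, against 10.5% of all genes tested. SCEL (sciellin), a cornified envelope precursor, changed by -0.74 ± 0.07 in A431 and 0.03 ± 0.07 in HSC-1. The cadherin DSG3 of desmosomes had levels of 9.59, 9.57 and 9.48 and then 9.05, 9.07 and 9.13 in A431, a 1.38-fold fall (limma adjusted p = 2.98e-06). In HSC-1 it had 9.10, 9.16 and 9.04 and then 9.26, 9.16 and 9.20, with an interval of 0.01 to 0.20 and an adjusted p of 0.11 (limma). The junction protein JUP (plakoglobin) changed by -0.23 ± 0.03 and 0.05 ± 0.03, and the basal keratin KRT15 by -0.52 ± 0.04 and -0.12 ± 0.04. Of 13 basal and adhesion genes, 6 had a higher effect in HSC-1 and 0 a lower one, or 46.2% in all, against 10.5% of all genes tested. In A431 6 fell, or 46.2% against 4.33% of all genes tested. The medians were -0.14 in A431 and 0.05 in HSC-1. Over the 7 squamous markers measured, which include DSG3, DSP and PKP1, the summed level ran in A431 from 12.53 to 12.58 with DMSO and from 12.37 to 12.41 with everolimus, and in HSC-1 from 12.79 to 12.82 and from 12.77 to 12.78. The groups did not overlap in either line, and the part of this shift in the values of single genes was not tested.

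Of the 58 genes that rose in A431 without passing in HSC-1, AMIGO2, an adhesion protein, had levels of 5.95, 6.08 and 5.73 and then 6.74, 6.75 and 6.88 in A431 and 6.59, 6.48 and 6.65 and then 6.94, 6.79 and 6.75 in HSC-1. It rose 1.83-fold in A431 (limma adjusted p = 4.72e-06). The HSC-1 difference, 0.26 with an interval of 0.07 to 0.44 and an adjusted p of 0.0536 (limma), passed under 7 of the 22 alternatives. MELTF, an iron-binding surface protein, rose 1.63-fold in A431 (levels 7.10, 7.12 and 7.12, then 7.91, 7.87 and 7.69) and had an HSC-1 interval of -0.02 to 0.25. POPDC1, a cAMP-binding membrane protein, rose 1.44-fold in A431 (levels 5.79, 5.77 and 5.78, then 6.37, 6.30 and 6.26) with overlapping HSC-1 groups and an interval of -0.23 to 0.10.

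Genes that moved the same way by unequal amounts make the contrast to these. S100A8, an alarmin of stressed epidermis, had levels of 8.74, 8.67 and 8.69 and then 6.81, 6.62 and 6.76 in HSC-1, and 6.27, 6.30 and 6.18 and then 5.41, 5.17 and 5.48 in A431. It fell 3.91-fold in HSC-1 and 1.86-fold in A431 (line difference -1.08 ± 0.11, limma adjusted p = 7.96e-06). The peptidase KLK9 fell by 1.14 ± 0.05 in HSC-1 and 0.36 ± 0.05 in A431. FGFBP1, a carrier of fibroblast growth factors, showed the larger fall in A431 (levels 7.97, 7.89 and 7.85, then 6.92, 7.04 and 6.98), 1.90-fold against 1.38-fold in HSC-1.

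**Figure D4:**
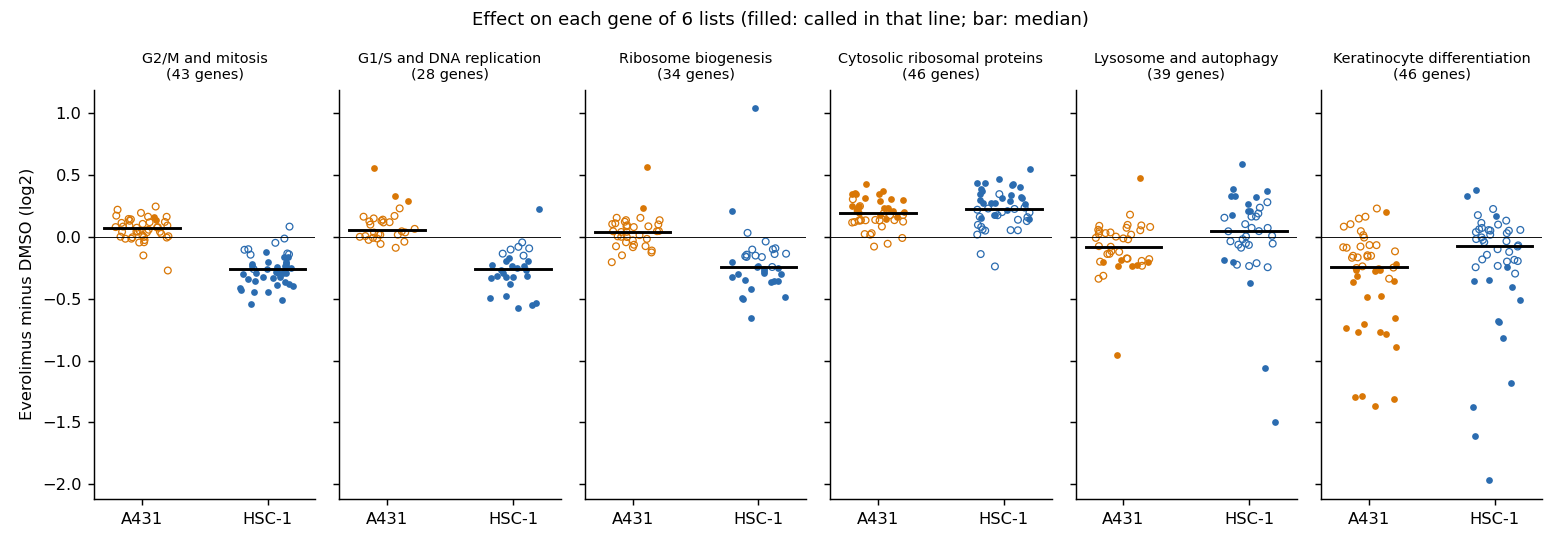
Everolimus minus DMSO (log2) for each tested gene of 6 lists in A431 and HSC-1, 1 point a gene, filled where it passed an adjusted p of 0.05 in that line, with a bar at the median. The G2/M, G1/S and ribosome biogenesis medians lie at -0.26, -0.26 and -0.24 in HSC-1 and at 0.08, 0.06 and 0.04 in A431, whereas the ribosomal protein medians lie at 0.23 and 0.19.

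Several genes of the pathway itself did not differ between the lines past the threshold. MTOR had a line difference of -0.14 ± 0.07 (limma adjusted p = 0.213), EGFR of 0.03 ± 0.05 (0.8) with an interval of -0.07 to 0.13, and MYC of -0.10 ± 0.07 (0.423). TSC1, TSC2, RHEB, AKT1S1, SESN2, IRS1, INSR, KRT5 and KRT14 did not pass either in the fit of all arrays. AKT1S1 passed with weighted arrays (limma adjusted p = 0.0261) and without HSC-1 everolimus replicate 3 (0.0304). DDIT4 and EIF4EBP2 did pass, each with a 1.14-fold line difference and the higher effect in HSC-1. Both calls were lost under several alternatives, among them the fit without the intensity trend (limma adjusted p = 0.152 and 0.171). EIF4EBP1, the translational repressor that the pathway phosphorylates, changed by -0.37 ± 0.07 in HSC-1 and 0.11 ± 0.07 in A431 (limma adjusted p of the line difference = 0.00462). ERBB3, a receptor kinase of the EGFR family, was in the opposite group at -0.28 and 0.25, with the A431 call lost under 7 and the HSC-1 call under 6 of the 22 alternatives while the line difference passed under all.

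The remaining lists lie on both sides of the 10.5% of all genes tested whose line difference passed. Of 71 mitochondrial ribosomal proteins 5 had a lower effect in HSC-1, or 7.04%. The 5 became 2 or 3 without A431 everolimus replicate 1, A431 DMSO replicate 2 or 3, HSC-1 DMSO replicate 1 or HSC-1 everolimus replicate 2 or 3. In HSC-1 21 of the list fell (12 without HSC-1 DMSO replicate 1), or 29.6% against 11.3% of all genes tested, and in A431 0 fell. Of 16 unfolded protein response genes and chaperones 7 passed, or 43.8%: 1, HSPB1, had a higher effect in HSC-1 and 6 a lower one, among them the chaperones HSPD1 and HSPH1 (line differences of -0.50 and -0.46). The 6 became 3 without A431 DMSO replicate 2 or 3 or HSC-1 DMSO replicate 1 or 2. Of 14 translation factors 4 had a higher and 2 a lower effect, or 42.9% in all, at a median line difference of -0.03, and the 4 became 1 or 2 without replicate 1 or 2 of either A431 group, HSC-1 DMSO replicate 2 or 3 or HSC-1 everolimus replicate 2. Of 17 glycolysis and hypoxia genes 3 had a higher effect, or 17.6%. Their median line difference was -0.04 and ran from -0.05 to 0.04 when single arrays were left out, and the 3 became 0 to 1 without any single array other than A431 DMSO replicate 3 and HSC-1 everolimus replicate 3. Of 17 cholesterol synthesis genes 2 passed, of 29 interferon-stimulated genes 1, of 9 NRF2 genes 1, of 16 p53 targets 3 (18.8%) and of 14 oxidative phosphorylation genes 0. The proteasome list had 0 tested genes.

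**Figure D5:**
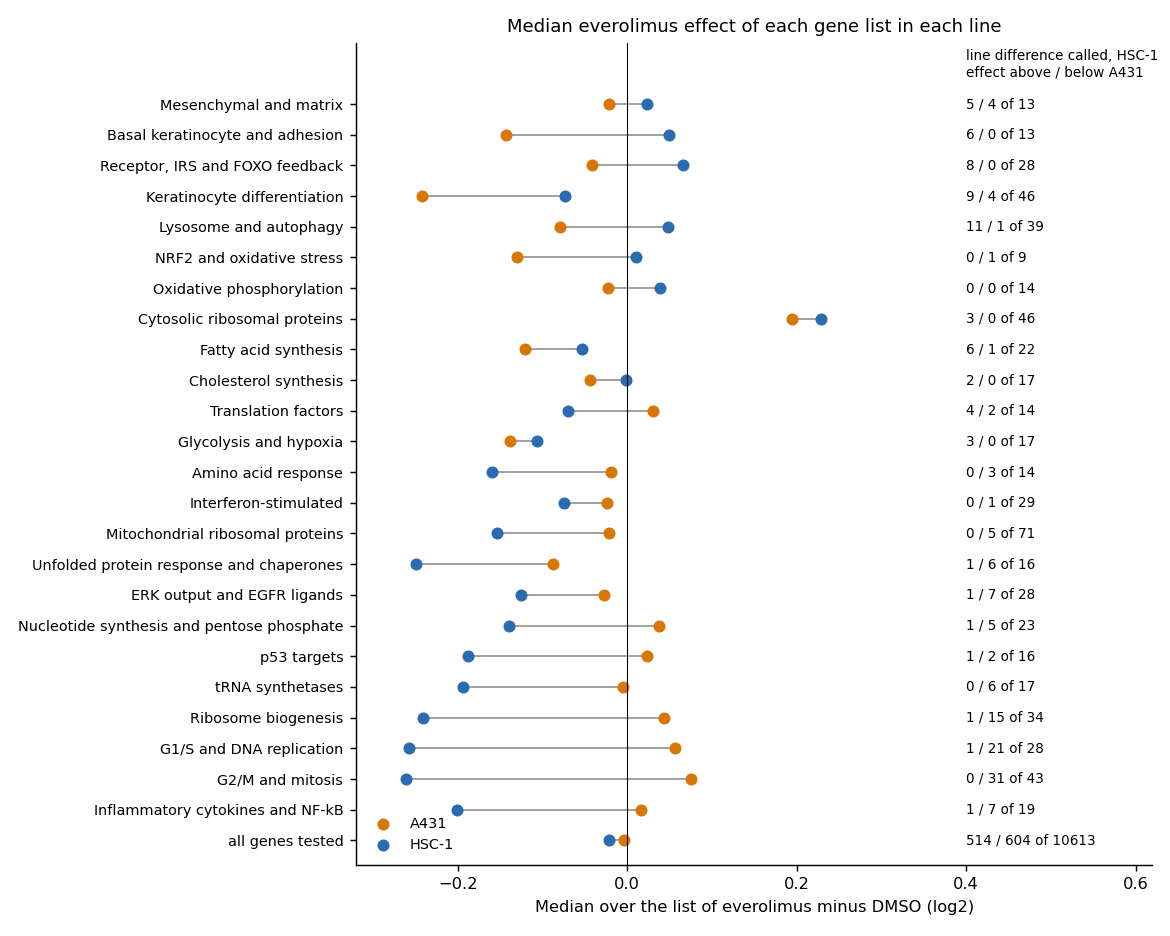
Median over each gene list of everolimus minus DMSO (log2) in A431 and HSC-1, with lists in rows and, at the right, the number of tested genes whose line difference passed with the HSC-1 effect above or below the A431 effect. The medians of all genes tested lie at -0.02 and 0.00, and the widest gaps with HSC-1 below A431 belong to G2/M, G1/S, ribosome biogenesis and the inflammatory list.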

How the data were processed

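RNA was measured on 12 Affymetrix arrays, 3 for each of A431 and HSC-1 with DMSO or everolimus, grouped by the sample titles. The authors deposited 1 log2 value per probe set and array. Per the submitters' processing notes, these came from the RMA method of the Affymetrix Expression Console, whose version, like the genome build, is not given in the sources used here. Per the labels' protocols, TRI reagent RNA was amplified and biotin-labelled with GeneChip whole-transcript kits. Because RMA forces 1 distribution on all arrays, a shift of RNA content per cell is invisible here. Precision is limited by the number of arrays.

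Of 53617 probe sets, 16098 carried 1 gene symbol, all found through their Entrez identifiers in the RefSeq genes of GRCh38.p14, and 37519 were unnamed. They covered 14884 genes, each represented by the probe set that was brightest on average over 12 arrays. The 10613 genes with at least 3 arrays above the array median were tested and 4271 left out. A gene was described where its mean level minus the array median was above 0 over the 6 arrays of each line, which holds for 9793. Of the 1079 called genes, 63 had several probe sets, 17 of them with opposite signs. Means of the 4 groups were estimated by lmFit of limma 3.58.1 (R 4.3.3) and eBayes with an intensity trend, on 8 residual degrees of freedom, and p-values were adjusted by Benjamini-Hochberg over all 10613. The contrasts were everolimus minus DMSO in each line, their difference (HSC-1 minus A431), and HSC-1 minus A431 in DMSO. A call is an adjusted p under 0.05. On simulated data with 200 changed genes among 10613, the difference between the lines recovered 14.8% of genes at a log2 size of 0.3, 43% at 0.5 and 90.5% at 1, with 5.09% of calls false.

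The genes described and the gene lists were chosen with earlier results of these data known, and lists are given by counts and medians, with no test. The 24 lists with tested genes held 609 genes, 7 of them in more than 1 list. Named genes were those with the largest called line difference whose groups did not overlap (up to 12 per direction in the opposite group, 10 in each one-line group, 4 in the same-direction group), up to 3 per list, and a panel of 30 genes, of which 21 were tested; these rules gave 138 genes. Of the panel MLST8, RPTOR, RICTOR, RPS6KB1, FKBP1A, CDKN1A, CDKN1B, TP63 and DEPTOR are not analysed here. A further 29 genes, and single genes named only as exceptions in a list's count, were chosen after their values were seen. Promoter windows came from RefSeq, 1 per gene (the one listed first), with 7546 of the 9793 genes matched.

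The alternatives were a replicate block over all groups or within each line, no level filter, a filter at the 60th percentile, no intensity trend, a robust prior, weighted arrays, median centring, a repeated quantile normalization, averaged probe sets per gene and each array left out in turn. For counts they included an adjusted p of 0.01, a fold of 1.5 and a level above the median on every array. Samples with the same replicate number did not deviate together (correlations from -0.155 to 0.075).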

Additional observations from a re-analysis of the deposited data

Results flagged for a closer look

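The everolimus effect differed between A431 and HSC-1 for 1118 genes by a test of the difference itself, and 84 of the genes above the median in both lines passed in each line with opposite signs. The named genes with effects of opposite sign are given here with the log2 effect in HSC-1 less that in A431. Lower in HSC-1 were LAPTM5 (-1.97), CLSPN (-1.04), C3 (-1.02), HOXA2 (-1.0), CPA4 (-0.91), KLK6 (-0.89), GINS2 (-0.81), NETO2 (-0.79), E2F7 (-0.78), KIF18B (-0.71), WDR62 (-0.70) and TRIP13 (-0.67). So were MYBL2 (-0.51), NIP7 (-0.47) and MKI67 (-0.40). Higher in HSC-1 were VGLL1 (1.30), GPNMB (1.16), OLFML2A (1.14), MIR3936 (1.10), TP53INP1 (1.05), KRT13 (1.03), KRT4 (0.96), CALCOCO1 (0.94), N4BP2L1 (0.94), FBXO32 (0.86), CLDN16 (0.83), OPN3 (0.79) and YPEL3 (0.78). So were PPL (0.61), TRIM22 (0.61), PSAP (0.53), ERBB3 (0.53), CTSD (0.46), ASAH1 (0.45), PLXNB2 (0.44), TPRG1L (0.40) and DSP (0.31). The difference passed for each of these under all alternatives run except CLSPN, which did not pass when its probe sets were averaged.

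Probe sets without a gene name were not part of the counts above. Of 17588 of them tested in the same way, 396 had a line difference past the threshold, 219 higher and 177 lower in HSC-1, or 2.25%, against 10.5% of the named genes.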

How the results depend on the processing

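No named gene whose line difference passed, in the main fit or under an alternative, changed direction there. Where it passed in neither, the direction was not compared. Of 3674 values of the 167 named genes under an alternative, 3475 kept their call and 196 lost and 3 gained one. With the samples sharing only a number, a replicate block over all groups gave 1005 called genes, 966 called genes above the median in both lines, and 68 in opposite directions; a block within each line gave 38 in opposite directions and 24 in the same direction by unequal amounts. Without the intensity trend 711 genes above the median in both lines were called (749 of all), with 32 in opposite directions, 114 in A431 and not in HSC-1 and 22 in the same direction. An adjusted p of 0.01 gave 541 of all genes and 525 above the median, with 27, 331, 83 and 17 in the opposite, HSC-1, A431 and same-direction groups, and a 1.5-fold threshold gave 228, 192, 34, 91, 41 and 7. Leaving out single arrays gave 879 to 1162 called genes, 846 to 1124 above the median in both lines, 42 to 95 in opposite directions, 478 to 639 in HSC-1, 122 to 216 in A431 and 26 to 46 in the same direction. A group left with 2 arrays was assumed to vary like the others. The share of calls with the higher effect in HSC-1 was 46%, and 39.1% to 53% over all settings. The cause of these shifts was not tested. The arrays carry no detection flags, so signal over background is known only against the array median. The simulation recovered 14.8% of differences of 0.3, so small line differences can be missed. It held 200 changed genes, fewer than the 1118 called here, so the share missed in these data was not measured.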

Other observations

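Genes of iron handling moved in 1 line each; they were picked out after their values were seen. CYBRD1, a ferric reductase, had levels of 7.35, 7.41 and 7.39 in HSC-1 with DMSO and 8.04, 8.33 and 8.13 with everolimus, a 1.72-fold rise (limma adjusted p = 3.74e-07), and an A431 interval of -0.25 to 0.05. HEPHL1, a ferroxidase, fell 2.07-fold in HSC-1 (-1.05 ± 0.13, limma adjusted p = 1.2e-05) and had an A431 interval of -0.28 to 0.25, at an A431 level of 0.28 above the array median. MELTF, the iron-binding protein described above, passed in A431 and not in HSC-1. No list of iron genes was counted, so these values describe the 3 genes alone.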
